A study of Arabidopsis thaliana with 30 samples.

Results

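The data described here are the differences between the response of root explants and the response of aerial explants of Arabidopsis thaliana after 96 h on callus-inducing medium. For each probe set, the change in root explants (96 h over 0 h) was set against the change in aerial explants (96 h over 0 h), and the quantity reported, the difference of changes, is the root change minus the aerial change on a log2 scale. It rests on 12 of the 30 arrays of the series, 3 in each of 4 groups: root explants at 96 h, root explants at 0 h, aerial organ explants at 96 h and aerial organ explants at 0 h. All explants were wild-type Columbia-0, cut as root segments or aerial organ segments from 10-day-old seedlings that had grown on solid MS medium at 22 °C under days of 16 h light and nights of 8 h. No mutant, transgene or other treatment was involved, and both organs met the same medium. Explants kept off the medium were not analysed here, so the effect of the medium cannot be told apart from that of cutting, of age or of the hour of harvest.

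Callus-inducing media carry auxin and cytokinin, and explants placed on them re-enter the cell cycle and form a mass of dividing cells. In Arabidopsis this callus is known to arise largely from pericycle or pericycle-like cells around the vasculature and to express genes of the lateral root programme, whichever organ it came from. Leaf cells are rich in chloroplasts and photosynthesis transcripts, whereas root cells hold mostly plastids without chlorophyll.

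Each value is a MAS5 signal from an Affymetrix array, a brightness summarised per probe set and scaled by the authors to a common trimmed mean. Changes were computed as differences of log2(signal + 22), where 22 is the 20th percentile of all signals, so that 1 unit is a 2-fold change, and changes of dim genes are understated. A change or a difference was called at an adjusted p below 0.05 in limma's moderated test, fitted once to all 30 arrays and adjusted by the Benjamini-Hochberg method over all 22746 probe sets that are not array controls. The labels call the 3 arrays of a group biological replicates without saying how they were grown, so the p-values measure the spread between these arrays. A signal above 87.4, the 40th percentile, is used below as a mark of a readily measured gene, since detection calls were not used. The array's GAPDH controls, whose 3′ over 5′ log2 signal ratio grows as RNA degrades, gave 0.394 to 0.714 in root explants at 96 h, against 0.198 to 0.404 at 0 h. This ratio was 0.288 to 0.646 in aerial explants at 96 h, against 0.362 to 0.957 at 0 h, and its part in the results was not tested. Most marker genes at 0 h went with the organ labels. All 8 measured photosystem and antenna genes were lower in root than in aerial explants (median log2 difference -7.71), beside 20.3% of all genes. Of 10 root patterning, root hair and root MADS genes, 6 were higher and 1 was lower in root explants, beside 22.0% and 20.3% of all genes.

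The response at 96 h differed between the organs for a large share of the transcriptome. The difference of changes was called for 8653 of 22746 probe sets (38.0%), positive for 4785 (21.0%) and negative for 3868 (17.0%). The change itself was called for 9682 probe sets in root explants (42.6%), 5942 up (26.1%) and 3740 down (16.4%), and for 7397 in aerial explants (32.5%), 4220 up (18.6%) and 3177 down (14.0%). The median difference of changes over all probe sets was 0.107. When each array was centred on its own median instead, the median moved by -0.151, to -0.044, and the calls split into 4052 positive and 4376 negative, so the balance of positive and negative calls follows the scaling. Counted as genes with 1 probe set each, 4565 of 13355 were called (34.2%), 2511 positive (18.8%) and 2054 negative (15.4%), and the median was 0.108. In root explants 24.1% of the genes were called up and 14.6% down, and in aerial explants 16.8% up and 12.2% down.

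Among the 4785 positive calls, the most frequent form was a rise in root explants with no called change in aerial explants (2040 probe sets, 42.6%). A fall in aerial explants with no called change in root explants made up 1309 (27.4%), and opposite changes, up in root and down in aerial explants, made up 834 (17.4%). Among the 3868 negative calls, 1584 (41.0%) fell in root explants with no called aerial change, 967 (25.0%) rose in aerial explants with no called root change, and 903 (23.3%) fell in root and rose in aerial explants. Changes called in the same direction in both organs but of different size were less common: 321 positive and 151 negative calls rose in both, and 93 positive and 106 negative calls fell in both. A further 188 positive and 157 negative calls had no called change in either organ. Across all probe sets, Pearson's r between the root change and the aerial change was 0.0738, a description only, since genes are not independent and all changes in an organ share its 3 arrays at 0 h.

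**Figure D1:**
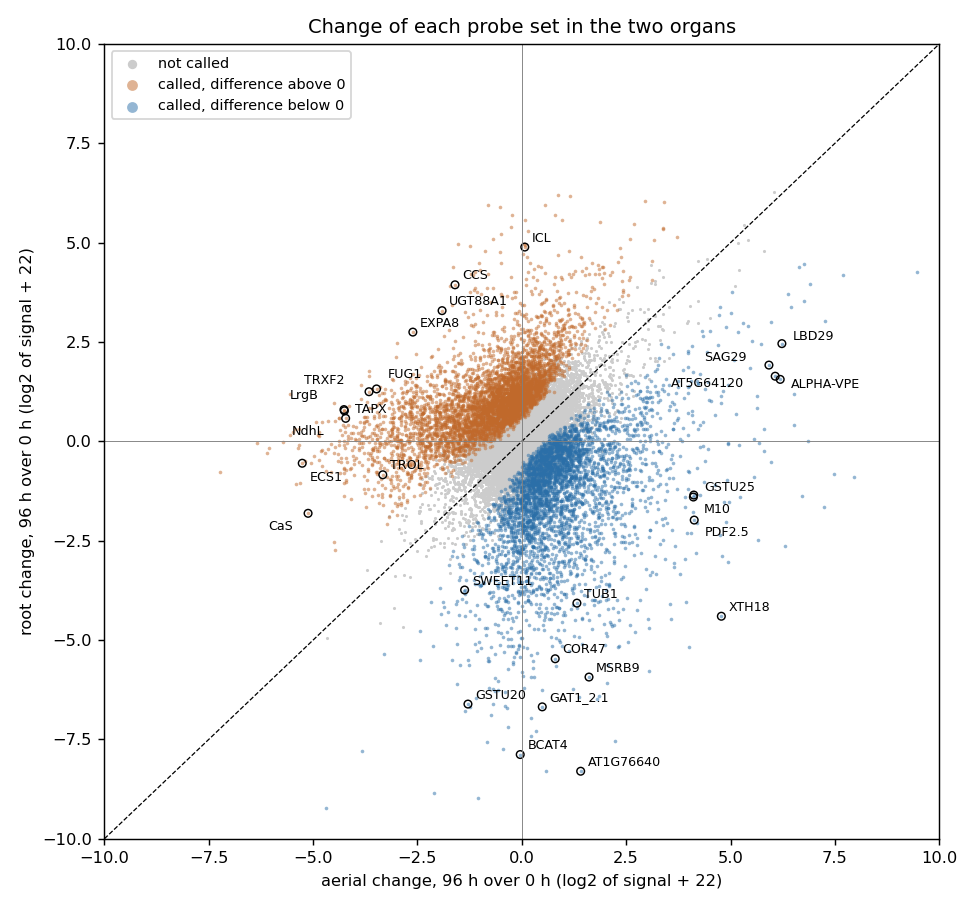
Each point is 1 of 22746 probe sets, placed by its change in aerial explants (horizontal axis) and in root explants (vertical axis), both as 96 h over 0 h in log2(signal + 22). Orange and blue mark a called difference above or below 0, grey no call, circles the 28 genes named by rule, and the dashed line equal changes; XTH18 lies among root falls with aerial rises, and CCS among root rises with aerial falls.

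The organs were more alike at 96 h than at 0 h. The root-to-aerial difference was called for 8194 probe sets at 96 h (36.0%), against 10641 at 0 h (46.8%), and differences of at least 8-fold were found in 524 probe sets at 96 h, against 1928 at 0 h. The narrowing was uneven between the sides. At least 8-fold higher signals in root explants were found in 43 probe sets at 96 h, against 848 at 0 h, while at least 8-fold higher signals in aerial explants were found in 481 at 96 h, against 1080 at 0 h. Of the 8653 probe sets with a called difference of changes, 6024 (69.6%) had a smaller gap between the organs at 96 h than at 0 h. The gap was called at 0 h but not at 96 h in 3860 (44.6%), and at 96 h but not at 0 h in 1745 (20.2%). In 1273 (14.7%) it was called at both times with the organs in opposite order. Of the positive calls, 3348 (70.0%) were higher in aerial explants at 0 h, and of the negative calls, 3045 (78.7%) were higher in root explants at 0 h. These counts share the arrays at 0 h with the difference of changes itself, so they describe where the differences sit and are not a separate test.

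**Figure D2:**
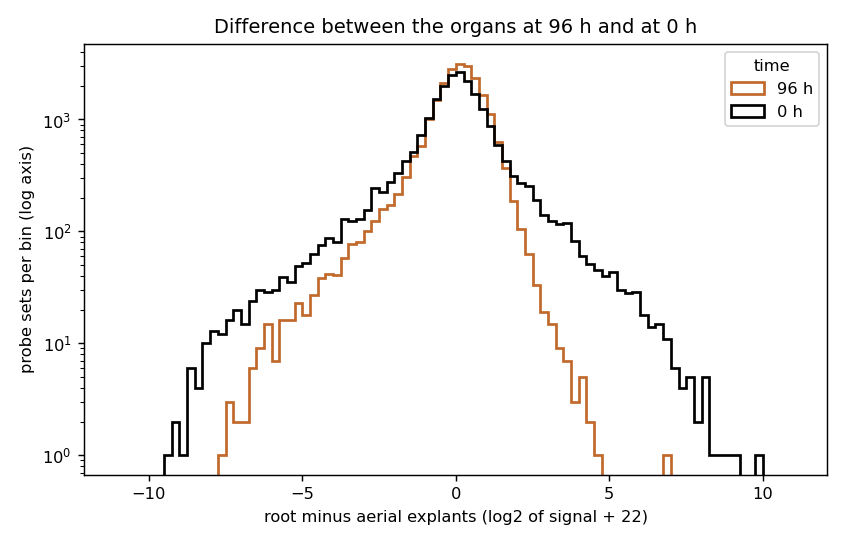
Number of probe sets (log axis) by the difference between root and aerial explants in log2(signal + 22), in equal bins, at 96 h (orange) and at 0 h (black). Both tails are thinner at 96 h, and the side of higher root signal lost more: 43 probe sets were at least 8-fold higher in root explants at 96 h, against 848 at 0 h.

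The clearest contrasts were genes that fell in root explants and rose in aerial explants. XTH18, a xyloglucan endotransglucosylase/hydrolase that cuts and rejoins wall xyloglucan, had signals of 440.3, 326 and 258 in root explants at 96 h, against 8582, 7305 and 6648 at 0 h. The same gene had 3787, 4023 and 4364 in aerial explants at 96 h, against 159.8, 120.3 and 103 at 0 h. The groups did not overlap within either organ, and the order of the organs was reversed between the times. The root change was -4.40, the aerial change 4.78 and their difference -9.18 (SE 0.40, limma adjusted p = 8.18e-17). MSRB9, a methionine sulfoxide reductase, had 115, 296 and 184 in root explants at 96 h, against 13119.9, 11684 and 13216 at 0 h. It had 745, 1156 and 1020.3 in aerial explants at 96 h, against 97.8, 462 and 549 at 0 h, so its fall in root explants was much larger than its rise in aerial explants (-5.93 and 1.61, difference -7.54, adjusted p = 1.30e-09).

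PDF2.5, a plant defensin, had 161, 327 and 236 in root explants at 96 h, against 551, 1146 and 1496 at 0 h, with all 3 root arrays lower at 96 h. In aerial explants it had 1157, 962 and 1120.2 at 96 h, against 96.7, 2 and 63.9 at 0 h, a rise on every array (4.13; difference -6.12, adjusted p = 4.33e-10). GSTU25, a tau-class glutathione transferase of stress and xenobiotic responses, had 2362, 3204 and 2062 in root explants at 96 h, against 8062, 5171 and 6284 at 0 h. It had 1955, 1040.1 and 1712 in aerial explants at 96 h, against 69.7, 80.2 and 52.1 at 0 h. Root explants stayed above aerial explants in mean signal at both times, but the gap closed (difference -5.47, adjusted p = 2.17e-09). M10, annotated as a late embryogenesis abundant protein of seeds, had 2.4, 5.7 and 3.7 in root explants at 96 h, against 87.7, 9.4 and 70.3 at 0 h, all below or near the readily measured level. Its aerial rise was large, to 1055, 975 and 729.8 at 96 h, against 26.6, 75.8 and 10.9 at 0 h (difference -5.51, adjusted p = 1.31e-09). Without the pseudocount the difference was -8.41. TUB1, a beta-tubulin with high levels in roots, had 62, 78.3 and 116 in root explants at 96 h, against 1353, 1581 and 2489 at 0 h. It had 1378, 1456 and 1381 in aerial explants at 96 h, against 352, 607 and 778 at 0 h, and the organs again changed places (difference -5.39, adjusted p = 4.49e-12).

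The opposite pattern, a rise in root explants and a fall in aerial explants, was led by CCS, the copper chaperone that loads copper/zinc superoxide dismutases. CCS had 885, 904 and 953 in root explants at 96 h, against 128, 16.4 and 17.4 at 0 h. It had 1492, 1449.7 and 1704 in aerial explants at 96 h, against 5599, 4258 and 4436 at 0 h. No group overlapped the other time in its organ, and the gap between the organs shrank (root change 3.94, aerial change -1.60, difference 5.54, SE 0.52, adjusted p = 7.74e-10). EXPA8, an alpha-expansin that loosens cell walls, had 189, 124 and 195 in root explants at 96 h, against 7.4, 3.7 and 7.3 at 0 h. It had 999.6, 991 and 824 in aerial explants at 96 h, against 5189.9, 6981 and 5476 at 0 h, so aerial explants remained higher at both times (difference 5.36, adjusted p = 2.57e-10). UGT88A1, a UDP-glycosyltransferase, had 1088, 719 and 1206 in root explants at 96 h, against 70.8, 86.6 and 85.5 at 0 h. It had 1791, 1522 and 1390.1 in aerial explants at 96 h, against 5854, 6971 and 5101 at 0 h, and its difference of 5.20 had the smallest adjusted p of these genes (2.37e-13).

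Plastid proteins were also in this class. TRXF2, a plastid thioredoxin that activates carbon fixation enzymes in the light, had 93.4, 111 and 73.6 in root explants at 96 h, against 44.3, 28 and 10.7 at 0 h. It had 135, 161 and 156 in aerial explants at 96 h, against 3042, 2113 and 1572 at 0 h, a small root rise (1.25) beside a fall of every aerial array (-3.66; difference 4.92, adjusted p = 9.24e-09). FUG1, the plastid translation initiation factor 2, had 379, 365 and 448 in root explants at 96 h, against 182, 132 and 127 at 0 h. It had 508, 354 and 425 in aerial explants at 96 h, against 7124, 4372 and 3889 at 0 h. At 96 h the 2 organs overlapped, while at 0 h every aerial array was above every root array (difference 4.80, adjusted p = 8.13e-13).

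**Figure D3:**
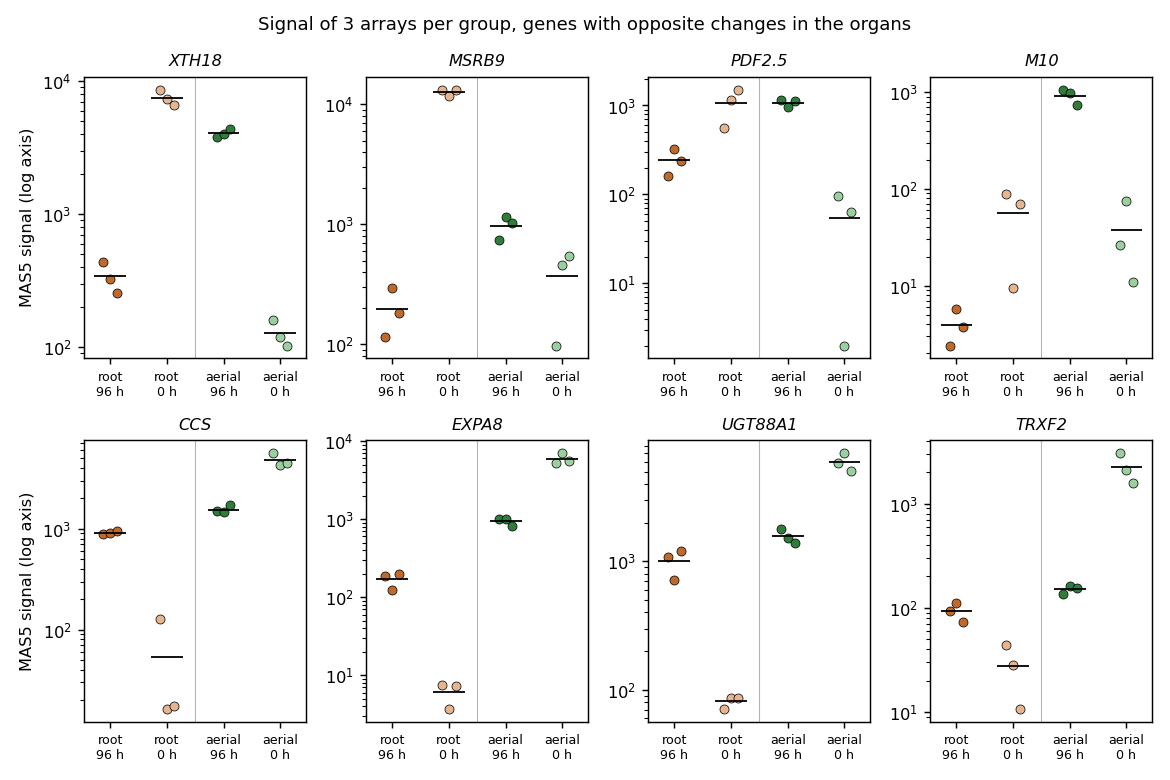
MAS5 signal (log axis) of each of 3 arrays (points) and their mean (bar) in root explants at 96 h and 0 h and aerial explants at 96 h and 0 h, for 8 genes with opposite called changes. The upper 4 genes fell in root and rose in aerial explants; the lower 4 rose in root and fell in aerial explants.

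Several of the largest negative differences had a called change in root explants alone. AT1G76640, a calmodulin-like protein gene, had 27.3, 13.9 and 3.9 in root explants at 96 h, against 9906, 12769 and 11295 at 0 h. It had 39.6, 51.5 and 35.6 in aerial explants at 96 h, against 2.4, 1.7 and 2.1 at 0 h, all dim, and its aerial change of 1.41 was not called (adjusted p = 0.109). Its root change of -8.30 gave the largest negative difference among the nameable genes, -9.71 (SE 0.94, adjusted p = 1.36e-09). COR47, a dehydrin of cold and drought responses, had 351, 511 and 440.2 in root explants at 96 h, against 25844, 19893 and 15648 at 0 h. It had 6195, 4708 and 4459 in aerial explants at 96 h, against 2154, 2993 and 3816 at 0 h; the aerial arrays did not overlap but the change of 0.80 missed the threshold (adjusted p = 0.055), and the difference was -6.27 (adjusted p = 4.49e-12). GAT1_2.1, a class I glutamine amidotransferase-like protein, had 2.4, 3.3 and 2.4 in root explants at 96 h, against 2859.5, 3312 and 1661 at 0 h. In aerial explants it was dim and scattered, 46.8, 107 and 5.2 at 96 h, against 34.9, 37.1 and 4.1 at 0 h (difference -7.16, adjusted p = 9.57e-07). A further probe set of GAT1_2.1 gave a difference of -1.10 that was not called (adjusted p = 0.0885), so the 2 probe sets disagreed.

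On the positive side, ICL, the isocitrate lyase of the glyoxylate cycle, changed in root explants. It had 1915, 2724 and 1667 in root explants at 96 h, against 39, 48.6 and 58.2 at 0 h, a rise of every array. In aerial explants it had 56.7, 97.6 and 399 at 96 h, against 198, 119 and 88.4 at 0 h, with overlapping groups and 1 high array at 96 h (root change 4.89, aerial change 0.071, difference 4.82, SE 1.11, adjusted p = 7.89e-04).

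Other large positive differences had a called change in aerial explants alone, in genes that root explants hardly expressed at either time. ECS1, a small secreted wall protein, had 6, 1 and 22.7 in root explants at 96 h, against 1.8, 48.1 and 32.7 at 0 h, all below the readily measured level. It had 365, 481 and 634 in aerial explants at 96 h, against 21562, 24373 and 13537 at 0 h, so the difference of 4.70 (adjusted p = 1.74e-09) came with a root change of -0.55 and an aerial change of -5.26. LrgB, the glycolate and glycerate transporter of the chloroplast envelope, had 35, 11.1 and 53.9 in root explants at 96 h, against 5.5, 12.7 and 6.7 at 0 h. It had 146, 168 and 157 in aerial explants at 96 h, against 4736, 3634 and 2270 at 0 h (difference 5.05, adjusted p = 6.73e-10). TAPX, the thylakoid ascorbate peroxidase, and NdhL, a subunit of the chloroplast NAD(P)H dehydrogenase-like complex, behaved alike, with differences of 5.02 and 4.80 (adjusted p = 3.62e-10 and 7.45e-10). Their mean signals in root explants were 45.3 and 22.6 at 96 h, against 17.1 and 9.23 at 0 h, with no called change. In aerial explants the means were 104 and 90.1 at 96 h, against 2432 and 2198 at 0 h.

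Among genes that rose in both organs, the largest differences were larger rises in aerial explants. ALPHA-VPE, a vacuolar processing enzyme of vegetative tissue, had 118, 116 and 110.2 in root explants at 96 h, against 5.6, 56.4 and 24.3 at 0 h. It had 2405, 4303 and 2776 in aerial explants at 96 h, against 17.6, 19.8 and 23.7 at 0 h, with rises of 1.56 in root and 6.19 in aerial explants (difference -4.63, adjusted p = 1.15e-08). AT5G64120, a class III peroxidase, had 1448, 1164 and 1128 in root explants at 96 h, against 476, 404 and 289 at 0 h. It had 14944, 13236 and 14493 in aerial explants at 96 h, against 90.5, 249.5 and 292 at 0 h (difference -4.42, adjusted p = 1.78e-08). SAG29, the sugar transporter SWEET15 known from senescing leaves, had 167, 212 and 147 in root explants at 96 h, against 90.7, 12.5 and 13.5 at 0 h. It had 3372, 6587 and 3570.1 in aerial explants at 96 h, against 53.8, 68.4 and 30.7 at 0 h (difference -4.01, adjusted p = 4.09e-05). LBD29, a LOB-domain transcription factor downstream of auxin response factors in lateral root initiation, had 230, 308 and 209.8 in root explants at 96 h, against 6.7, 23.6 and 67.1 at 0 h. It had 1654, 2395 and 2001 in aerial explants at 96 h, against 7.3, 6 and 1.6 at 0 h, and while all arrays of both organs rose, the aerial rise was the larger (2.46 in root and 6.23 in aerial explants, difference -3.77, SE 0.62, adjusted p = 1.10e-05).

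Among genes that fell in both organs, GSTU20, a tau-class glutathione transferase associated with glucosinolate synthesis, fell far more in root explants. It had 32.4, 9.9 and 24.1 in root explants at 96 h, against 2949, 5146 and 4803 at 0 h, and 2073, 1508 and 1872 in aerial explants at 96 h, against 5106, 5101 and 3358 at 0 h (difference -5.32, adjusted p = 4.94e-10). SWEET11, a sucrose exporter of the phloem parenchyma, had 46, 53 and 46.7 in root explants at 96 h, against 1218, 839.5 and 764 at 0 h. It had 3576, 2709 and 3471 in aerial explants at 96 h, against 7139, 8107 and 10171 at 0 h, again with the larger fall in root explants (difference -2.37, adjusted p = 1.27e-05). CaS, the thylakoid calcium-sensing protein, fell more in aerial explants. Its mean signals were 21.8 in root explants at 96 h, against 132 at 0 h, and 251 in aerial explants at 96 h, against 9250.0 at 0 h (difference 3.31, adjusted p = 4.29e-06). TROL, the thylakoid rhodanese-like protein that tethers ferredoxin-NADP reductase, had a difference of 2.49 (adjusted p = 8.75e-05) that was lost without the pseudocount (1.80, adjusted p = 0.174). Its root signals were 47, 26.8 and 6.1 at 96 h, against 61.2, 70.6 and 48.2 at 0 h.

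Genes of photosynthesis were low in root explants at both times and fell in aerial explants. Of 48 nuclear genes of the photosystems, antennae and ATP synthase, 8 were named on the array through 1 gene per probe set, and all 8 had a called positive difference, beside 18.8% of all genes (median 2.47, against 0.108 over all genes). None had a called change in root explants (median -0.28), and all 8 fell in aerial explants (median -2.90), where 12.2% of all genes were called down. LHCB4.1, a minor antenna protein of photosystem II, had 149.5, 146 and 206 in root explants at 96 h, against 259, 214 and 171 at 0 h, with overlapping groups. It had 5203, 4244 and 3255 in aerial explants at 96 h, against 34326, 27484 and 29113 at 0 h (difference 2.53, adjusted p = 3.41e-07). PSAN, a luminal subunit of photosystem I, had the largest difference of the list, 4.34 (adjusted p = 1.52e-07). Across the list, group means in root explants spanned 44.6 to 167 at 96 h and 45.9 to 215 at 0 h. In aerial explants the means spanned 114 to 4234 at 96 h, against 565 to 30307 at 0 h. At 96 h 7 of the 8 genes were still lower in root than in aerial explants, beside 13.2% of all genes. In these bulk samples, fewer green cells and less RNA per green cell cannot be told apart.

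Carbon fixation and photorespiration followed the same course in 5 of 6 measured genes of a list of 33 (median difference 3.44). These 5 had a called positive difference, beside 18.8% of all genes. RCA, the Rubisco activase, had mean signals of 178 ± 75.1 in root explants at 96 h, against 173 ± 42.6 at 0 h (SD, n = 3). In aerial explants the means were 4125 ± 1017 at 96 h, against 31816 ± 5159 at 0 h. HPR, the peroxisomal hydroxypyruvate reductase, had a difference of 4.37, and AT1G11860, the T-protein of glycine decarboxylase, one of 3.32 (adjusted p = 7.41e-08 and 1.51e-10). AT1G11860 was well expressed in root explants and showed no called change there (1221, 1565 and 1474 in root explants at 96 h, against 985, 1049 and 1322 at 0 h), while aerial explants fell to a similar level (1277, 1509 and 1263 at 96 h, against 14322, 11489.5 and 7545 at 0 h). AT1G80380, the glycerate kinase of photorespiration, fell in both organs (-2.0 in root and -2.10 in aerial explants), with a difference of 0.10 and a 95% interval of -0.91 to 1.11. All 5 measured genes of chlorophyll synthesis, from a list of 18, had called positive differences (median 2.11), again beside 18.8% of all genes. They ranged from 1.21 for GSA1, the glutamate-1-semialdehyde aminomutase, to 3.17 for CHLM, the Mg-protoporphyrin methyltransferase. Without the pseudocount the differences of LHCB4.3, ATPC1, PRK, SBPASE and PORB were 1.76, 1.87, 2.72, 2.55 and 1.74 and none of them was called (adjusted p = 0.106, 0.127, 0.111, 0.099 and 0.0848). LHCB4.3 also lost its call with centred arrays (adjusted p = 0.0627), with only the 12 arrays in the fit (0.064) and in 6 of 12 fits that left out 1 array, with differences from 1.07 upward.

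Transcripts of the plastid genome, a group added after values had been seen, also fell in aerial explants. Of 69, 44 had a called positive difference and none a negative one (median 1.52), beside 18.8% and 15.4% of all genes. In root explants 4 of the 69 rose and 2 fell (median -0.05), beside 24.1% and 14.6% of all genes. In aerial explants 57 fell (median -1.67), beside 12.2%. Some calls were lost in fits that left out 1 array. This happened in 9 of 12 fits for ndhE and ndhK, 8 for rps15 and 7 for atpE and atpF. It happened in 5 for petD and rpl32, 4 for ndhJ and 3 for cemA. The other called members kept their calls in all 12. rbcL, the large subunit of Rubisco, had 360.5, 560.3 and 522 in root explants at 96 h, against 272, 687 and 456 at 0 h, with overlapping groups. It had 873, 844 and 932 in aerial explants at 96 h, against 9385, 7632 and 8636 at 0 h (difference 3.33, adjusted p = 1.97e-09). The next largest differences were those of rpoC2, a subunit of the plastid RNA polymerase (3.26), and psbC, a core antenna protein of photosystem II (3.21). psbL, a small subunit of photosystem II, fell in both organs by about the same amount (-0.97 in root and -0.96 in aerial explants). Biotinylated targets are commonly primed from poly(A) tails, which plastid messages largely lack, so their absolute signals are not comparable with those of nuclear genes.

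**Figure D4:**
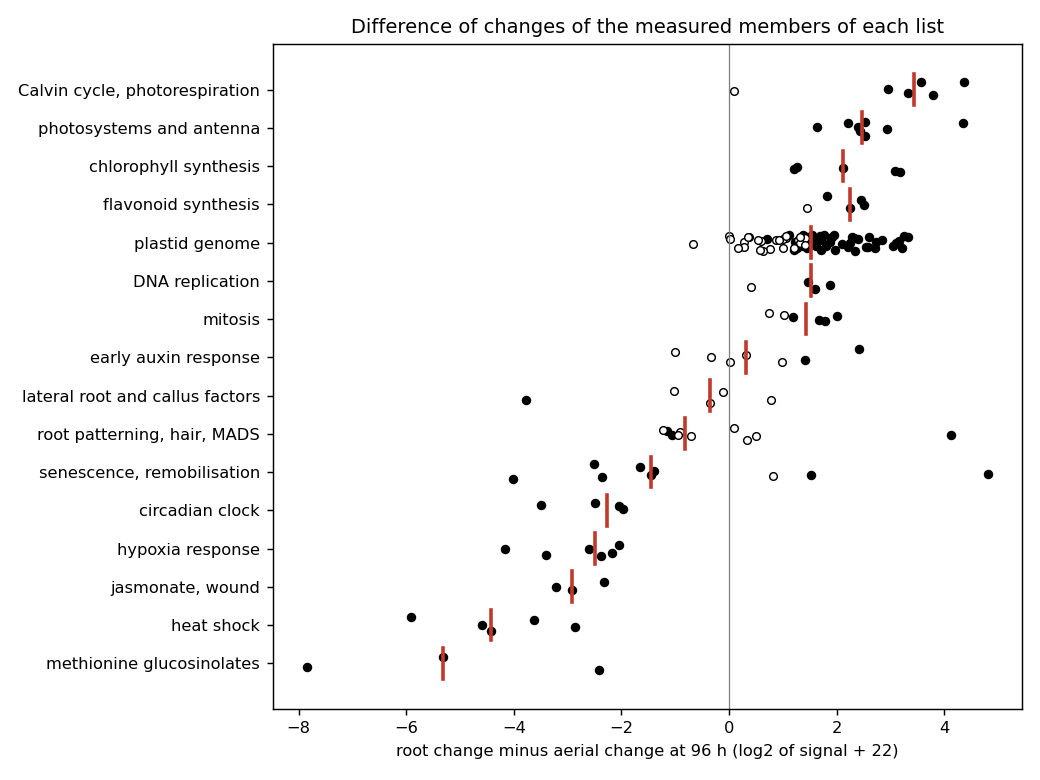
Difference of changes at 96 h (root change minus aerial change, log2 of signal + 22) of each measured member of 16 gene lists; filled points were called at an adjusted p below 0.05, open points were not, and the red bar is the list's median. Photosynthesis lists lie above 0, and the heat shock, hypoxia, jasmonate and methionine glucosinolate lists lie below 0.

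Heat shock, hypoxia and jasmonate genes lay on the negative side. All measured genes of these lists were called higher in root explants at 0 h, beside 22.0% of all genes. All 5 measured heat shock genes of a list of 17 had a called negative difference (median -4.43), beside 15.4% of all genes. All 5 fell in root explants (median -4.02), beside 14.6% of all genes, and 1 rose in aerial explants (median 0.35), beside 16.8%. AT2G29500, a small heat shock protein of class I, had 274, 206 and 262 in root explants at 96 h, against 7249, 3735 and 2034 at 0 h. It had 94.7, 109 and 163 in aerial explants at 96 h, against 58.9, 74.1 and 52.9 at 0 h, a change of 0.76 that was not called (difference -4.60, adjusted p = 9.11e-09). AT5G51440, a mitochondrial small heat shock protein, was the member that also rose in aerial explants (1.44, adjusted p = 0.0291; difference -5.92). At 0 h the list's 5 genes were all higher in root than in aerial explants (median log2 difference 4.73), and at 96 h 1 was, beside 22.0% and 18.7% of all genes. The 3 root arrays at 0 h were themselves far apart for these genes: AT1G53540, also of class I, had 46.3, 86.1 and 68.4 in root explants at 96 h, against 2966, 1509.7 and 600.4 at 0 h (difference -3.63, adjusted p = 4.42e-04).

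Hypoxia-response genes, which are switched on by group VII ERF factors when oxygen is short, were called negative in 6 of 6 measured members of a list of 17 (median -2.49), beside 15.4% of all genes. Here both organs contributed: 4 fell in root explants and 4 rose in aerial explants, beside 14.6% and 16.8% of all genes. AT4G17260, annotated as a lactate dehydrogenase, had 1903, 3623 and 2588 in root explants at 96 h, against 5503, 7349 and 7756 at 0 h. It had 1116, 1149.5 and 1599 in aerial explants at 96 h, against 422, 551 and 642 at 0 h (difference -2.60, adjusted p = 1.93e-06). AT4G24110, of unknown function and part of the core hypoxia set, rose in aerial explants to 261, 308 and 521 at 96 h, against 2.7, 19.3 and 29 at 0 h (difference -4.16, adjusted p = 8.89e-07). PDC2, a pyruvate decarboxylase of ethanol fermentation, fell in root explants (-1.48) with no called aerial change (0.57). All 6 were higher in root than in aerial explants at 0 h, and 3 of them at 96 h, beside 22.0% and 18.7% of all genes.

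The 3 measured jasmonate and wound genes of a list of 16 were also called negative (median -2.91), again beside 15.4% of all genes. OPCL1, a CoA ligase of jasmonate synthesis, had 847, 539 and 830.3 in root explants at 96 h, against 2023, 3393 and 3796 at 0 h, and 412, 574 and 659 in aerial explants at 96 h, against 271, 182 and 218 at 0 h (difference -3.21, adjusted p = 6.19e-08). DGL, a plastid lipase, had 2.7, 7.5 and 2.1 in root explants at 96 h, against 107, 106 and 109 at 0 h, and stayed dim in aerial explants (18.1 at 96 h and 3.4 at 0 h on average; difference -2.91). ORA47, an AP2/ERF factor of early wound signalling, fell in both organs (-4.77 and -2.44); its 3 aerial arrays at 0 h read 1228, 52.3 and 390.3, and without the second of them its difference of -2.33 was -1.24 and not called (adjusted p = 0.13). The call of ORA47 also ended without root 96 h array 2, without root 0 h array 3, without the pseudocount and with only the 12 arrays in the fit (adjusted p = 0.0529, 0.05, 0.101 and 0.0503). Of 4 cold and dehydration genes, LTI30, a dehydrin, had 3291, 2114 and 2303 in root explants at 96 h, against 34949.7, 30501 and 22994 at 0 h, and aerial values of 135, 178 and 80.7 at 96 h, against 195, 142 and 51.1 at 0 h (difference -3.62, adjusted p = 1.11e-06). COR15B, a chloroplast-targeted cold protein, had a positive difference of 1.84 at low signal, and COR15A was not called (0.63). Without root 96 h array 2 or aerial 96 h array 3, COR15B was not called (adjusted p = 0.0723 and 0.1).

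All 4 measured clock or clock-regulated genes of a list of 17 were called negative (median -2.27), beside 15.4% of all genes. Of these, 3 rose in aerial explants, beside 16.8% of all genes, and 1 of the 3 also fell in root explants, beside 14.6%. GI, which sets the timing of flowering and the clock, had 969, 1034 and 1081 in root explants at 96 h, against 2087, 2136 and 1759.5 at 0 h, and 166, 483 and 429 in aerial explants at 96 h, against 76, 3.9 and 62.1 at 0 h (difference -3.49, adjusted p = 5.91e-05). CCL, whose message stability is under clock control, had 97.5, 63.4 and 132 in root explants at 96 h, against 78.3, 82.8 and 42.2 at 0 h, with overlapping groups, and 9994, 7968 and 6472 in aerial explants at 96 h, against 567, 2141 and 2448 at 0 h (difference -2.05, adjusted p = 0.00363). AT4G33980, a cold- and clock-regulated gene, fell in root and rose in aerial explants (difference -2.50). COR27, a partner of the clock under cold, had -1.98, which was not called in 5 of 12 fits that left out 1 array (differences from -1.38 downward). Whether the explants of the 2 organs or the 2 times were harvested at the same hour is not stated, and the hour cannot be told apart from the treatment for these genes.

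**Figure D5:**
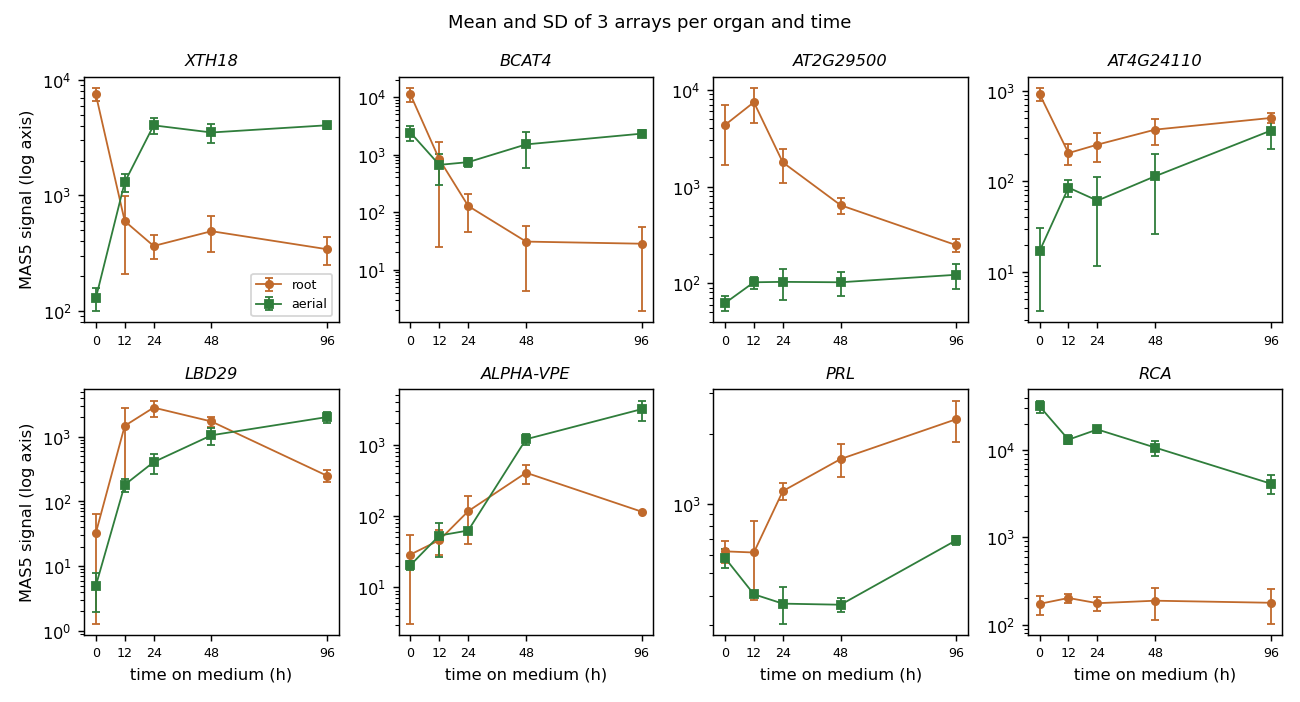
Mean MAS5 signal (log axis) of 3 arrays against time on the medium in root (orange circles) and aerial explants (green squares) for 8 genes; bars are the SD, cut at a signal of 1. XTH18 and LBD29 change order between the organs over the course. BCAT4 falls in root explants, mostly before 24 h, while its aerial means end near their start.

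Genes of methionine-derived glucosinolate synthesis, a defence pathway of the cabbage family, fell to near background in root explants. All 3 measured genes of a list of 20 had called negative differences (median -5.32) and root falls (median -6.61), beside 15.4% and 14.6% of all genes. BCAT4, the aminotransferase that starts methionine chain elongation, had 5.6, 57.2 and 22 in root explants at 96 h, against 7585, 13068 and 12686 at 0 h. It had 2163, 2085 and 2681 in aerial explants at 96 h, against 2251, 3159 and 1840.1 at 0 h, so aerial levels overlapped (aerial change -0.038, difference -7.85, adjusted p = 7.35e-09). AT2G31790, a glycosyltransferase of the pathway, had 4.6, 8.1 and 7 in root explants at 96 h, against 387, 563 and 802 at 0 h, and a smaller aerial fall to 426, 405 and 324 at 96 h, against 1702, 1491 and 1415 at 0 h (difference -2.41, adjusted p = 1.13e-05). GSTU20, described above, is the third. At 0 h the list's genes were not uniformly higher in either organ (1 higher and 1 lower in root explants), and at 96 h all 3 were lower in root explants, beside 13.2% of all genes. The mean of BCAT4 in root explants over 0, 12, 24, 48 and 96 h was 11113, 826, 128, 30.8 and 28.3, a fall most of which lay before 24 h.

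Most measured genes of DNA replication and mitosis had a called positive difference. Of 4 measured replication genes from a list of 21, 3 had a called positive difference (median 1.53), beside 18.8% of all genes, and all 4 rose in root explants, beside 24.1% of all genes, while none was called in aerial explants. PRL, the MCM7 subunit of the replicative helicase, had 1784, 2687 and 2467 in root explants at 96 h, against 594, 701 and 572 at 0 h, and 664, 694 and 726 in aerial explants at 96 h, against 517, 618 and 613 at 0 h (difference 1.59, adjusted p = 5.74e-05). ICU2, the catalytic polypeptide of polymerase alpha, had 636, 616 and 697 in root explants at 96 h, against 117, 128 and 140.2 at 0 h, and 66.8, 148 and 149 in aerial explants at 96 h, against 68.2, 85.1 and 124 at 0 h (difference 1.87, adjusted p = 6.07e-04). POLD3, a subunit of polymerase delta, had a difference of 1.47, and PSF2, of the GINS complex, one of 0.41 that was not called (95% interval -0.38 to 1.20).

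Of 6 measured genes of mitosis, also from a list of 21, 4 had a called positive difference (median 1.43), again beside 18.8% of all genes. All 6 rose in root explants and 2 in aerial explants, beside 24.1% and 16.8%. AUR2, an Aurora kinase of the cell plate and spindle, had 746, 574 and 661 in root explants at 96 h, against 126, 129 and 139 at 0 h, and 641, 429 and 468 in aerial explants at 96 h, against 364, 455 and 358 at 0 h (difference 1.79, adjusted p = 2.94e-04). AUR1 rose in both organs, by 2.15 in root and 0.97 in aerial explants (difference 1.18, adjusted p = 0.00619). BUBR1, of the spindle checkpoint, and AT1G63100, a GRAS-domain factor, had differences of 2.0 and 1.67. AUR3 and HTR12, the centromeric histone H3, were not called (1.02 and 0.74). At 0 h none of these genes was higher in root explants, while at 96 h 5 of the 6 were, as were 3 of the 4 replication genes (18.7% of all genes were higher in root explants at 96 h).

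All measured auxin-response genes rose in root explants and most rose in aerial explants. Called differences were no more frequent among them than among all genes. All 7 measured GH3 and Aux/IAA genes of a list of 19 rose in root explants (median 3.32), beside 24.1% of all genes. In aerial explants 6 rose (median 3.02), beside 16.8%. Of the 7, 2 had a called difference (median 0.31), beside 34.2% of all genes. GH3.3, an enzyme that conjugates auxin to amino acids, had 9639, 9869.9 and 11230.1 in root explants at 96 h, against 333, 235 and 528 at 0 h, and 17961, 20464 and 17144 in aerial explants at 96 h, against 362, 348 and 234 at 0 h (difference -1.01, 95% interval -2.03 to 0.013, not called). GH3.1 had 0.31 (-1.06 to 1.69) and IAA20 0.018 (-1.05 to 1.09), so a 2-fold difference in either direction lies within both intervals. IAA29 was called (2.42, adjusted p = 0.00728): it had 396, 142 and 370.5 in root explants at 96 h, against 27, 1.7 and 60 at 0 h, and scattered aerial values of 623, 526 and 270 at 96 h, against 808, 140 and 397 at 0 h. WES1, the GH3.5 enzyme, rose in both (4.55 and 3.13), and its difference of 1.42 was not called without aerial 0 h array 1 (1.08, adjusted p = 0.0765). Of 2 type-A response regulators, which damp cytokinin signalling, RR16 had a called difference (2.14, adjusted p = 0.00278) with dim root values, and ARR15 did not (0.86). Both fell in aerial explants (median -1.61), and 1 fell in root explants, beside 12.2% and 14.6% of all genes.

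Lateral root and callus factors rose in both organs in 4 of 5 measured members of a list of 22. The medians were 2.46 in root and 3.19 in aerial explants, where 24.1% and 16.8% of all genes were called up. LBD16, a paralogue of LBD29 that also acts in lateral root initiation, rose by 2.91 in root and 3.26 in aerial explants, with a difference of -0.35 (95% interval -1.23 to 0.53). PUCHI, an AP2/ERF factor of early lateral root primordia, rose by 3.96 and 3.19 (difference 0.78, interval -0.16 to 1.71). AT1G36060, the wound-induced factor WIND3, rose by 1.88 and 2.90 (difference -1.03, interval -2.63 to 0.57). AT5G65130, the related WIND4, was dim and was not called (-0.11). LBD29, described above, had the list's 1 called difference, beside 34.2% of all genes called. With a pseudocount of 64, 2 members were called. The mean of LBD29 in root explants over 0, 12, 24, 48 and 96 h was 32.5, 1474, 2820.0, 1720.0 and 249, and in aerial explants 4.97, 181, 406, 1054 and 2017. Its difference of changes was 1.57 at 12 h, 1.87 at 24 h, -0.14 at 48 h and -3.77 at 96 h, all relative to the same arrays at 0 h. No member of the list, LBD29 included, had a called difference at 12 h.

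Root patterning, root hair and root MADS genes were mixed: of 10 measured in a list of 31, 1 difference was positive, 2 were negative and 7 were not called (median -0.82), beside 34.2% of all genes called. CR4, the receptor kinase ACR4 of formative divisions in the root, had 258, 389.6 and 262 in root explants at 96 h, against 3.3, 3.9 and 3 at 0 h, and 198, 149 and 139.8 in aerial explants at 96 h, against 191, 203 and 315 at 0 h (difference 4.13, adjusted p = 7.36e-09). BBM, an AP2 factor of root stem cells and embryogenesis, rose in both organs (3.26 and 2.92, difference 0.34, interval -0.87 to 1.55), as did AT5G48940, a receptor of root meristem growth factors (2.11 and 3.07, difference -0.95). GSO1, a receptor kinase of the endodermal barrier, and AGL21, a MADS factor of lateral roots, had small negative differences (-1.15 and -1.06). The call of GSO1 was lost without root 0 h array 3 (-0.97, adjusted p = 0.0643) or aerial 0 h array 1 (-0.89, adjusted p = 0.0779), and that of AGL21 in 7 of 12 fits that left out 1 array and with a pseudocount of 64 (-0.23, adjusted p = 0.567). Of 7 leaf polarity, stomatal and trichome regulators from a list of 27, 3 were called positive (median 1.07), beside 18.8% of all genes: YAB3, a leaf polarity factor (2.02), SPCH, which starts the stomatal lineage, and TRY, a trichome repressor (1.99). SPCH had 9.6, 5.8 and 4.6 in root explants at 96 h, against 15.5, 7.6 and 8.4 at 0 h, all dim, and 2.4, 5.7 and 19 in aerial explants at 96 h, against 95.1, 188 and 112 at 0 h (difference 2.12, adjusted p = 2.59e-04). Without the pseudocount the differences of YAB3 and TRY were 2.13 and 4.19, no smaller than with it, but neither was called (adjusted p = 0.0829 and 0.0543). TRY was also not called without root 96 h array 2, root 0 h array 1, aerial 96 h array 3 or aerial 0 h array 3.

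Wall-loosening families split by member. Here and below, a family is the set of genes matched by symbol or synonym, which need not be the whole family. Of 19 expansins, 6 had a positive and 3 a negative called difference (median 0.52), beside 18.8% and 15.4% of all genes. EXPB1 (1.51), among the positive ones, lost its call in 6 of 12 fits that left out 1 array and without the pseudocount (1.49, adjusted p = 0.196). EXPB2, a beta-expansin, had 1389.6, 2720.2 and 1755 in root explants at 96 h, against 37, 32.2 and 99.5 at 0 h, and 91.3, 101 and 67.7 in aerial explants at 96 h, against 26.5, 19.8 and 78.9 at 0 h (difference 3.83, adjusted p = 4.33e-04). EXPA15 rose in root explants (2.74, difference 3.41). On the other side, EXLA1, an expansin-like protein, had 824, 553 and 486 in root explants at 96 h, against 4526, 3934 and 3964 at 0 h, and 1173, 1639 and 1711 in aerial explants at 96 h, against 410, 149.8 and 630.5 at 0 h (difference -4.78, adjusted p = 4.12e-10). EXPA9 and EXLA3 had differences of -4.30 and -3.93. Of 10 xyloglucan endotransglucosylase/hydrolases, 6 were called negative and 1 positive (median -1.43), beside 15.4% and 18.8% of all genes. Among the negative ones, XTH21 (-1.52) lost its call in 7 of 12 fits that left out 1 array and XTH26 (-1.35) in 6. XTH21 was also not called without the pseudocount (adjusted p = 0.132), nor XTH26 with quantile normalization (0.0575). XTH19, the neighbour of XTH18 in sequence and on the chromosome, had 1724, 2054 and 1603 in root explants at 96 h, against 3588, 3858 and 5431 at 0 h, and 12596, 10353 and 9121 in aerial explants at 96 h, against 787, 1666 and 2158 at 0 h (difference -4.12, adjusted p = 1.09e-09). XTH20 rose in aerial explants to 1758, 1321 and 1515 at 96 h, against 14.5, 85.8 and 41.1 at 0 h, and had no called change in root explants (0.67; difference -3.94). EXGT-A3 was the positive one (1.71, adjusted p = 5.72e-06), rising in root explants (1.26).

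Class III peroxidases cross-link wall phenolics and make or use hydrogen peroxide. Of the 6 matched by symbol or synonym, 4 were called negative and none positive (median -3.12), beside 15.4% and 18.8% of all genes. AT5G66390 had 46.4, 34.4 and 28 in root explants at 96 h, against 1322, 998 and 1148 at 0 h, with overlapping aerial groups (0.56; difference -4.90, adjusted p = 3.48e-08). AT2G41480 fell in root and rose in aerial explants (-1.32 and 1.86, difference -3.18), while AT5G64120 rose in both. Among 7 genes of tubulins and tubulin folding, 2 differences were called positive and 2 negative (median -0.17), beside 18.8% and 15.4% of all genes. TUB7 rose in root explants (2.03, difference 1.57), and TUB5 fell there (-2.78, difference -2.75), so the tubulin genes did not move as a block. The tubulin folding cofactor POR had 1.04. Of 5 histone genes, 1 was called positive, beside 18.8% of all genes: HTB2, a histone H2B (0.81). HTB2 was not called without root 0 h array 1 (0.65, adjusted p = 0.062) or aerial 96 h array 2 (0.68, adjusted p = 0.0579).

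Senescence and remobilisation genes were called in 8 of 9 measured members of a list of 25, 6 negative and 2 positive (median -1.45), beside 34.2% of all genes called, 15.4% negative and 18.8% positive. Besides SAG29 and SWEET11, IVD, which breaks down leucine in mitochondria, rose in aerial explants (1.82, adjusted p = 2.60e-04) with scattered root values at 0 h (1500, 738 and 338; difference -2.51, adjusted p = 2.84e-04). MGL, the methionine gamma-lyase, MCCA, of leucine breakdown, and ATG8E, of autophagosome formation, had smaller negative differences (-1.45, -1.40 and -1.66), all lost without root 0 h array 1 (-0.97, -1.13 and -1.29; adjusted p = 0.161, 0.093 and 0.0665). Leaving out other single arrays ended the call of MGL in 7 further fits and that of MCCA in 3, and MGL was not called with only the 12 arrays in the fit or without the mean-variance trend (adjusted p = 0.0555 and 0.0597). The positive members were ICL and PPDK, pyruvate orthophosphate dikinase (1.52, adjusted p = 0.0107; 1.03 and 0.0605 without root 0 h array 3, and 0.95 and 0.0663 with a pseudocount of 64). Of 17 SWEET sugar transporters, 5 were called negative and 1 positive, beside 15.4% and 18.8% of all genes. SWEET13 (-1.61) lost its call in 8 of 12 fits that left out 1 array, and SWEET17 (0.93), the positive one, in 7. SWEET16, of the vacuolar membrane, had 103, 93.1 and 105 in root explants at 96 h, against 1256, 1062 and 798 at 0 h (difference -2.13, adjusted p = 3.18e-05).

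Defence proteins, 5 measured of a list of 10, included large aerial rises, and 2 were called negative and 1 positive (ECS1, above), beside 15.4% and 18.8% of all genes. OSM34, an osmotin-like protein, was strongly expressed in root explants at both times (23394, 22552 and 20191 in root explants at 96 h, against 20143, 24960 and 24952 at 0 h). It had 3773, 8208 and 6689 in aerial explants at 96 h, against 189, 88.6 and 158 at 0 h, a rise of 5.20 (difference -5.28, adjusted p = 1.84e-08). PR-1-LIKE rose in both organs, by 4.18 in root and 7.70 in aerial explants (difference -3.53, adjusted p = 3.78e-04). PDF2.1, a defensin, also rose in both (4.45 and 3.09) and was not called (1.36), nor was PDF1.2 (-0.84).

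Flavonoid genes were called positive in 4 of 5 measured members of a list of 15 (median 2.25), beside 18.8% of all genes, with no called root change and aerial falls (median -2.41). Their root means were 6.17 to 104 at 96 h and 7.97 to 119 at 0 h. UGT78D2, a flavonoid glucosyltransferase, had 87.5, 117 and 107 in root explants at 96 h, against 91.2, 133 and 134 at 0 h, and 204, 263 and 236 in aerial explants at 96 h, against 1986, 953 and 1254 at 0 h (difference 2.25, adjusted p = 9.38e-06). UGT78D1 and UF3GT, glycosyltransferases of flavonols and anthocyanins, were not called without the pseudocount (2.21 and 4.01, adjusted p = 0.0907 and 0.0523). UF3GT, with a difference of 1.82, also lost its call in 6 of 12 fits that left out 1 array, with differences from 1.40 upward.

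Families of detoxification and secondary metabolism were mixed. Of 12 glutathione transferases, 6 were called negative and 1 positive (median -1.24), beside 15.4% and 18.8% of all genes, and 9 fell in root explants, beside 14.6%. GSTU23 (-1.54), among the negative ones, lost its call in 7 of 12 fits that left out 1 array. GSTU22 had 420.2, 260.5 and 219 in root explants at 96 h, against 2664, 2042 and 2471 at 0 h, and 168, 156 and 109 in aerial explants at 96 h, against 60.4, 42.4 and 36.2 at 0 h (difference -4.23, adjusted p = 1.38e-08). GSTU18, the positive one, fell in aerial explants (-4.01, difference 3.56). Of 43 UDP-glycosyltransferases, 8 were called positive and 9 negative (median -0.042), near the 18.8% and 15.4% of all genes, so the family as a whole did not stand out in these counts. UGT76C2, which inactivates cytokinins by N-glucosylation, had 2036, 2048 and 2276 in root explants at 96 h, against 309.9, 350.1 and 283 at 0 h, and 697, 625 and 621 in aerial explants at 96 h, against 611, 866 and 608 at 0 h, with no called aerial change (difference 2.75, adjusted p = 6.09e-10). UGT71B1 had 2.88. UGT73B4, a stress-induced flavonoid glucosyltransferase, rose in aerial explants to 668, 628 and 737 at 96 h, against 9.9, 21.1 and 42.3 at 0 h, with overlapping root groups (difference -3.82, adjusted p = 1.67e-08). UGT71C1 and UGT73B5 had -3.56 and -3.20. Of 24 cytochrome P450 genes, 7 were called negative and 1, CYP71B35, positive, beside 15.4% and 18.8% of all genes. Among the negative ones, CYP71B24 (-1.51) lost its call in 8 of 12 fits that left out 1 array and CYP71B26 (-1.28) in 7. CYP71B35 had 1.95, and without the pseudocount 2.65, which was not called (adjusted p = 0.137). CYP71B23 had 87.9, 50 and 57.2 in root explants at 96 h, against 326, 468 and 478 at 0 h, and 446, 352 and 584 in aerial explants at 96 h, against 41.5, 63.3 and 71.9 at 0 h, opposite changes of similar size (difference -4.93, adjusted p = 1.52e-08). CYP718 and CYP71B34 had -3.96 and -2.18, both through root falls.

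The difference between the organs' responses was present early and grew in extent. It was called for 4922 probe sets at 12 h (21.6%), 6192 at 24 h (27.2%), 7240 at 48 h (31.8%) and 8653 at 96 h (38.0%), all against the same 6 arrays at 0 h. For XTH18 it was -6.92, -9.08, -8.48 and -9.18 over 12, 24, 48 and 96 h, close to its final size by 24 h. For AT2G29500 it was 0.33, -1.71, -3.08 and -4.60, small at 12 h and larger at each later time. For the photosystem list none of the 8 genes was called at 12 h or 24 h, 5 were at 48 h and all 8 at 96 h (medians 0.27, 0.35, 1.17 and 2.47), where positive calls made up 10.3%, 14.0%, 15.5% and 18.8% of all genes. The hypoxia list was called for 6 of 6 genes already at 12 h (median -2.71), beside 8.68% of all genes called negative at that time. Of the 4 replication genes none was called at 12 h and 3 were at 24 h.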

How the data were processed

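Total RNA of root and aerial explants (about 5 µg per labelling) was measured as biotinylated cRNA on Affymetrix arrays. The deposited values are intensity signals per probe set on a linear scale, made by the authors with MAS5 per the submitters' processing notes (version not stated there). Their trimmed mean, leaving out 2% at each end, was 500 to 500.1 on every array, and no background or detection calls were used. Arrays were grouped by their titles. Replicates correlated at 0.932 or above, no 2 arrays were identical, and same-numbered replicates did not deviate together (r of -0.043 to 0.156), so numbers were not taken as pairs.

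Of 22810 probe sets, 64 controls were left out. limma 3.58.1 (R 4.3.3) was fitted to log2(signal + 22) with 10 group means and a mean-variance trend, two-sided, with Benjamini-Hochberg adjustment over 22746 probe sets. Its script was tested on simulated data. Probe sets were named through the platform annotation and current RefSeq symbols: 13513 had 1 gene, 503 several, and 8730 are unnamed here. Of the called probe sets, 4057 had no gene or several. A gene with several probe sets was represented by 1 of them.

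Named were the 10 largest called differences in each direction and the 4 largest of each class called in both organs, among genes with a symbol or protein name and a group with all 3 signals above 87.4, the measured members of the gene lists, and up to 3 genes per family and direction. Of the 13513 probe sets with 1 gene, 1659 had a symbol or protein name there. AT5G51440 (-5.92) had neither, so it is described with its list and not among the 10 largest. List members were matched by locus, with or without a symbol, and count as measured where a probe set names that gene alone; the others were not analysed here. Members, lists and families were chosen with earlier results of these data known, and the plastid genome and calmodulin-like groups after their values were seen. Families were matched by symbol or synonym, so members known only by locus are left out. Lists and families are described by counts and medians only. Alternatives were the pseudocount, a low-signal filter, array centring, quantile normalization, the 12 arrays alone, the replicate block, no trend, the mean over probe sets, and leaving out each of the 12 arrays. The number of arrays limits the precision.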

Additional observations from a re-analysis of the deposited data

Results flagged for a closer look

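The genes below stand out because the difference of changes between root and aerial explants at 96 h was itself tested and called in limma. Where the root change was the higher, the differences on the log2(signal + 22) scale were 5.54 for CCS, 5.36 for EXPA8, 5.20 for UGT88A1, 5.05 for LrgB, 5.02 for TAPX, 4.92 for TRXF2, 4.82 for ICL, 4.80 for FUG1, 4.80 for NdhL, 4.70 for ECS1, 3.31 for CaS and 2.49 for TROL. Where the aerial change was the higher, they were -9.71 for AT1G76640, -9.18 for XTH18, -7.85 for BCAT4, -7.54 for MSRB9, -7.16 for GAT1_2.1, -6.27 for COR47, -6.12 for PDF2.5, -5.51 for M10, -5.47 for GSTU25, -5.39 for TUB1, -5.32 for GSTU20, -4.63 for ALPHA-VPE, -4.42 for AT5G64120, -4.01 for SAG29, -3.77 for LBD29 and -2.37 for SWEET11. They were chosen as extremes of this contrast among genes with a symbol or protein name, so their size is in part a matter of that choice.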

How the results depend on the processing

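The difference of changes was called for 7751 to 8987 probe sets over the alternatives, against 8653 as reported, and for 7917 to 8472 when 1 array was left out; 88.5% to 99.5% of the reported calls were kept. With the replicate block 8914 were called and no called gene named here lost its call, but the numbers do not pair the arrays. Centring each array on its median changed the positive share from 55.3% to 48.1%. Of 194 called genes of the lists and named sets, 27 lost their call without the pseudocount, 9 with centring and 7 to 21 when 1 array was left out, and none changed sign. Counts of called list members moved by more than 1.5 times as follows. Without the pseudocount they were 3 for carbon fixation, 1 for leaf identity, 2 for flavonoids and 4 for P450 genes, against 5, 3, 4 and 8. With a pseudocount of 64 they were 5 for leaf identity and 2 for lateral root and callus factors, against 3 and 1. The low-signal filter left 2 flavonoid calls. Leaving out 1 array gave 3 to 6 SWEET genes, 5 to 8 senescence genes, 0 to 1 histone genes and 1 to 3 auxin-response genes, against 6, 8, 1 and 2. The cause of these shifts was not tested, except that the filter tested fewer genes. Dim genes, such as photosynthesis genes in root explants, limit what can be said of root changes.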

Other observations

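Calmodulin-like genes, calcium sensors induced by touch, wounding and other stresses, were looked at after AT1G76640 had been seen, so their values are a description only. Of 8 measured genes, 6 had a called negative difference, beside 15.4% of all genes; AT1G76640 itself is counted among them. CML38 had 834, 422 and 442 in root explants at 96 h, against 10981, 9028 and 8698 at 0 h, and 89.8, 75.9 and 144 in aerial explants at 96 h, against 76.8, 17.4 and 72.4 at 0 h (difference -4.86, limma adjusted p = 6.07e-06). CML37 had a difference of -4.63, CML42 one of -3.39, CML23 one of -3.18 and CML43 one of -1.99. CML41 and CML30 were not called (0.21 and 0.67). In root explants 5 of the 8 fell, beside 14.6% of all genes. At 0 h 6 of the 8 were higher in root than in aerial explants, against 2 at 96 h counted by the same call. The shares of all genes higher in root explants were 22.0% at 0 h and 18.7% at 96 h. All groups here share the arrays at 0 h with the heat shock, hypoxia and jasmonate genes.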
